A study of Mus musculus with 6 samples.

Results

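The cytosolic ribosomal protein genes were examined in hepatic stellate cells, liver pericytes that store vitamin A and lay down matrix after injury. They were chosen by symbol, as Rpl or Rps followed by a number with an optional letter and further digits, or as Rplp0, Rplp1, Rplp2 or Rpsa, with pseudogene symbols marked -ps left out. The rule found 84 of 24346 gene symbols, 51 of the large and 33 of the small subunit. Of these, 77 are core genes and 7 are paralogs (Rpl3l, Rpl7l1, Rpl10l, Rpl22l1, Rpl39l, Rps4l and Rps27l), that is, related second copies with their own symbol. The rule misses some ribosomal protein genes with other symbols, among them Rpl36al, Fau and Rack1 (listed as Gnb2l1). It also takes in Rps4l, which GENCODE M21 annotates as a transcribed processed pseudogene. A total of 81 members had a mean of at least 1 FPKM and were tested. Rpl3l, Rpl10l and Rpl39l did not reach it.

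Cells came from wild type C57BL/6 mice aged 35 weeks. Livers of mice on a high-fat diet were divided into tumour and non-tumour region, and these 2 regions and the livers of normal diet mice were each dissociated by perfusion at 37 or at 6 degrees, and cells that carried CD49a but neither CD31 nor CD45.2 by surface staining were sorted in every group. Transcripts of the gated proteins were still listed: Pecam1, which encodes the endothelial protein CD31, had 10.7 and 53.0 FPKM in tumour-region cells (37 and 6 degrees), 9.99 and 90.6 in non-tumour-region cells and 0.900 and 31.4 in normal diet cells. Ptprc, which encodes the leukocyte protein CD45, had 5.44 and 16.5 FPKM in tumour-region cells, 0.375 and 2.73 in non-tumour-region cells and 0.397 and 1.75 in normal diet cells. Both were higher at 6 degrees in each source. This gave 6 groups of 1 library each. The labels do not say how many mice each library held or whether the libraries came from separate mice, so the p-values below measure only the spread between these libraries, which may be technical. All 20 listed stellate cell markers were detected in every library, with summed levels of 26570 to 47828 FPKM. FPKM divide the fragments of a gene by its transcript length and by a measure of library size, so levels of different genes can be compared per length. How library size was measured here is not given. The estimated depth was 1.65e+07 to 2.31e+07 fragments per library, if that measure is each library's own mapped fragments. In such bulk samples, fewer cells of a type and less RNA per cell cannot be told apart.

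Ribosomal proteins bind ribosomal RNA to form the large and the small subunit of the ribosome, the machine that translates messenger RNA. Growing cells coordinate them at the level of translation: most of their messengers start with a cytosine followed by a run of pyrimidines, the terminal oligopyrimidine (TOP) motif, through which the kinase complex mTORC1 controls their entry into polysomes. RNA sequencing of whole-cell RNA measures the messenger level and not this step.

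Pyrimidine runs near the annotated starts were of uneven length. Such a run is not by itself the TOP motif, and how many messengers begin with that motif was not counted. Windows of 30 bases are printed for Rpl7a and Rpl35, which hold long runs, for the 4 members with the highest fold changes between 37 and 6 degrees (Rps21, Rplp2, Rpl10 and Rpl12), for the paralog Rpl22l1 and its parent Rpl22, for the paralog Rps27l, and for Rps6. They come from the RefSeq promoter table of GRCm38.p6, with 15 bases before the annotated start and 15 from it on. The capitals mark the longest run of pyrimidines wherever it lies in the window, and in Rps27l and Rpl22 it lies wholly before the start.
Rpl7a: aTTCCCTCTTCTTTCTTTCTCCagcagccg
Rpl35: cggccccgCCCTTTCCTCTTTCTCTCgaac
Rps21: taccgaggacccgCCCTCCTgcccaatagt
Rplp2: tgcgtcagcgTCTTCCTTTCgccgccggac
Rpl10: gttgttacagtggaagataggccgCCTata
Rpl12: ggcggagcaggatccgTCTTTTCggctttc
Rpl22l1: gtgcggcgcaagcccgTTCTCTTCCCacgg
Rpl22: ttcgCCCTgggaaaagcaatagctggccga
Rps27l: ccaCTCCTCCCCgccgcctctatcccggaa
Rps6: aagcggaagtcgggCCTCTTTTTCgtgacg
On the plus strand lie the windows of Rpl7a at chr2:26910792-26910821, Rps21 at chr2:180257364-180257393, Rplp2 at chr7:141447636-141447665, Rpl10 at chrX:74270801-74270830, Rpl12 at chr2:32961697-32961726, Rpl22l1 at chr3:28805493-28805522, Rpl22 at chr4:152325711-152325740 and Rps27l at chr9:66946071-66946100. On the minus strand lie those of Rpl35 at chr2:39005117-39005146 and Rps6 at chr4:86857353-86857382. The run was 21 bases long in Rpl7a, 18 in Rpl35 and 3 in Rpl10. It was 10 bases in Rpl22l1, against 4 in its parent Rpl22, where it lies before the annotated start. In GENCODE M21 Rpl22 begins at chr4:152325742, past the end of the printed window. The contrast with Rpl22l1 therefore holds only for the starts used here.

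Of the members, 63 had an entry in that table, 57 of them core genes. A pyrimidine run of at least 8 bases within 20 bases of the annotated start was present in 26 of the 57 core genes (45.6%), against 15.6% of 17191 listed genes with an entry. The letters CTTTC or CTTTT on the gene's strand were present in the same window of 20 core genes (35.1%), against 8.31% of all. The motif CCGGAAG, searched on both strands of the 300 bases, was found in 23 core genes (40.4%), against 11.7% of all. TATAA between 40 and 15 bases before the start was found in 4 (7.02%), against 4.43%. Core genes with a run of at least 8 bases had a median log2 fold change of 0.11 between 37 and 6 degrees (n = 26), against 0.14 for those with a shorter run (n = 31). Their interquartile ranges overlapped, at 0.08 to 0.15 and 0.07 to 0.19.

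Ribosomal protein genes were among the most abundant messengers per length. Of the 81, 14 had a mean of at least 600 FPKM, 25 lay between 300 and 600, 35 between 100 and 300, and 7 below 100, and 61 ranked among the 500 genes with the highest mean. The highest as listed per symbol was Rpl41, which encodes a very short basic peptide of the large subunit. Rpl41 had 1635 and 1282 FPKM in tumour-region cells (37 and 6 degrees; the same order holds below), 1202 and 1172 in non-tumour-region cells and 1320 and 1215 in normal diet cells. Rps29, a zinc-binding protein of the small subunit, had 1233 and 1035 FPKM in tumour-region cells, 1064 and 952 in non-tumour-region cells and 1041 and 873 in normal diet cells. The sum of Rps27 and Rps27rt, a copy with the same coding bases, had a mean of 1515 FPKM and exceeded Rpl41 in all 6 libraries. In Rpl41 and Rps29 the highest of the 6 libraries was that of tumour-region cells at 37 degrees.

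Rpl13, Rpl37a and Rps18 followed. Rpl13 had 1128 and 988 FPKM in tumour-region cells, 936 and 910 in non-tumour-region cells and 930 and 889 in normal diet cells. Rpl37a had 1015 and 846 FPKM in tumour-region cells, 865 and 858 in non-tumour-region cells and 868 and 802 in normal diet cells. Rps18 had 979 and 832 FPKM in tumour-region cells, 838 and 800 in non-tumour-region cells and 893 and 779 in normal diet cells. Rpl13 exceeded Rpl37a in all 6 libraries, whereas Rpl37a and Rps18 stood in the other order in the normal diet library of 37 degrees, so the ranks of Rpl37a and Rps18 were not separated beyond their spread.

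**Figure D1:**
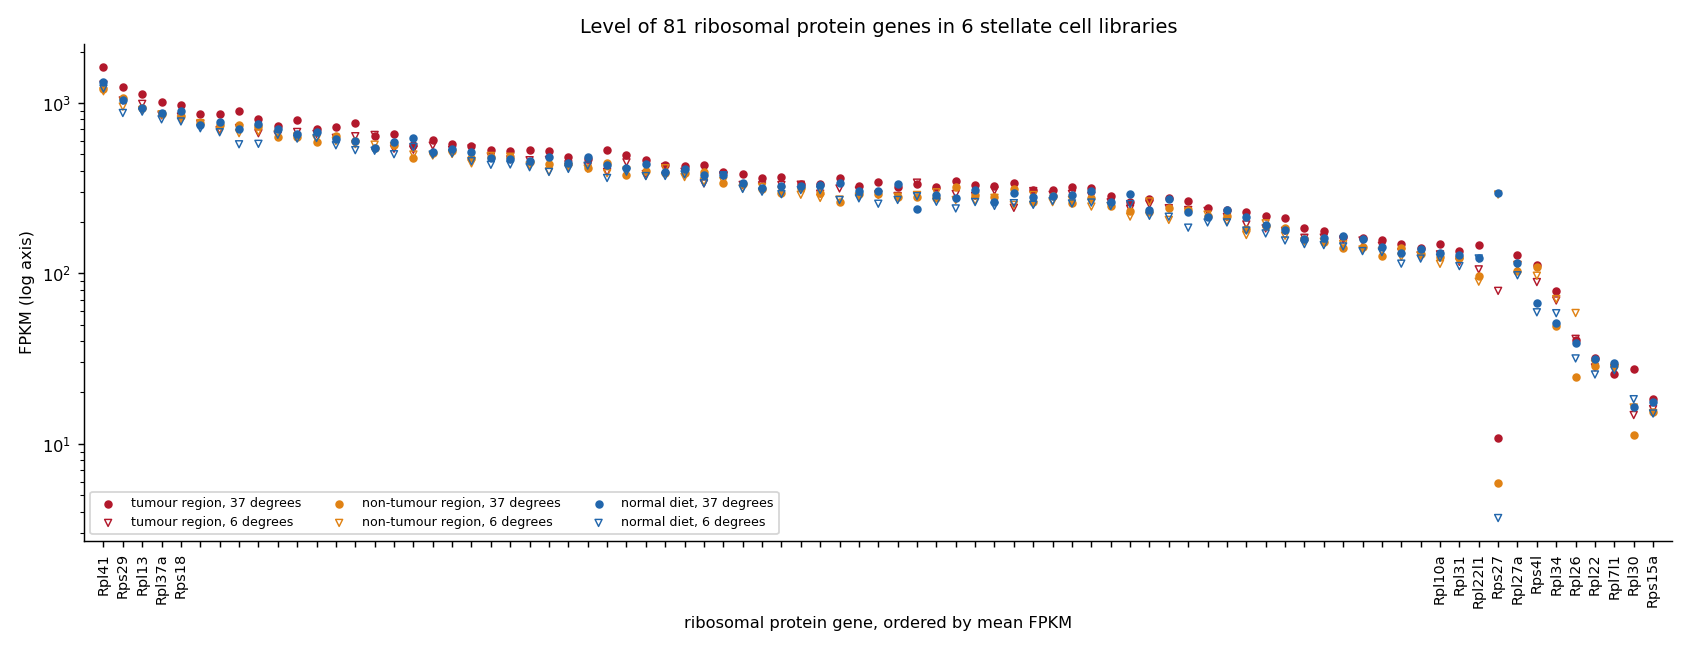
FPKM of the 81 tested ribosomal protein genes (log axis), ordered by mean, in each of the 6 libraries, with names at the high and the low end. Colours are liver sources, filled circles 37 degrees and open triangles 6 degrees. For 74 of 81 the 6 points lie within 1.5-fold of each other, with tumour-region cells at 37 degrees highest for 70 of 81 on this scale (4 as a share of the library sum), while Rps27 spreads from 3.67 to 295 FPKM.

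Most members varied little. The ratio of the highest to the lowest library had a median of 1.26 over the 81, and 74 (91.4%) stayed under 1.5-fold. Over the 11495 genes tested with a value above 0 in every library the median was 1.51, and 49.3% stayed under 1.5-fold. Those genes include many of low level, whereas 61 of the members ranked among the 500 most abundant. Neither this comparison nor that of the coefficient of variation below was matched for level. Rpl5 and Rpl11 (1.15-fold each) were among the most constant members. Over 14 genes often used as references for normalization the median was 1.37, and 10 (71.4%) stayed under 1.5-fold. They ran from Eef1a1 (1.19-fold) to Tfrc (4.93-fold, at a mean of 1.12 FPKM). With each library scaled to its own FPKM sum, the members' median coefficient of variation was 7.36%, against 17.4% for all genes; as deposited it was 8.87%, against 15.5%.

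At the low end, the core genes as listed differed 80.3-fold in mean between Rpl41 and Rps15a. Rps15a, a small-subunit protein, had 18.2 and 16.0 FPKM in tumour-region cells, 15.5 and 15.2 in non-tumour-region cells and 17.6 and 15.1 in normal diet cells. Rpl30 had 27.5 and 14.7 FPKM in tumour-region cells, 11.3 and 16.3 in non-tumour-region cells and 16.5 and 18.3 in normal diet cells. Rpl26 had 40.7 and 41.3 FPKM in tumour-region cells, 24.6 and 58.5 in non-tumour-region cells and 39.0 and 31.7 in normal diet cells. Rpl30 and Rpl26 have near-identical copies elsewhere in the genome, and a quantification can assign a fragment to either copy.

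For 4 members most of the signal was listed at a copy outside the rule. Stretches of 60 coding bases from GENCODE M21 (GRCm38), numbered from the first coding base, are printed to show how few letters separate gene and copy, with capitals at the base that differs. For Rpl30 and its copy Gm12191 they are bases 66 to 125, and for Rpl26 and its copy Gm15772 bases 147 to 206. Rps27 and Rps27rt have the same 252 coding bases, so bases 1 to 60 are printed once.
Rps27 and Rps27rt: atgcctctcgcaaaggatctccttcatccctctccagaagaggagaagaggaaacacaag
Rpl30: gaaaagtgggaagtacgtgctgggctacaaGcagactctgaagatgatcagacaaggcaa
Gm12191: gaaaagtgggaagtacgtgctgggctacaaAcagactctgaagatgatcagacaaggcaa
Rpl26: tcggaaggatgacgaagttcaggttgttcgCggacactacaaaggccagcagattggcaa
Gm15772: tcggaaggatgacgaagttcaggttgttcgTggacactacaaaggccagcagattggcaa
Rps27 lies at chr3:90212522-90213651 on the minus strand and Rps27rt, annotated as protein coding, at chr9:114982366-114982739 on the minus strand. Rpl30 lies at chr15:34440505-34443640 (minus strand) and its copy at chr11:49678710-49679057 (minus strand), and Rpl26 at chr11:68901583-68906989 (plus strand) and its copy at chr5:3236431-3236868 (plus strand). Rpl30 and Gm12191 differ at 1 of 345 coding bases, Rpl26 and Gm15772 at 2 of 435, and Rpl34 and Rpl34-ps1 at 2 of 353.

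Rps27 showed the split most plainly. It had 10.8 and 78.9 FPKM in tumour-region cells, 5.89 and 290 in non-tumour-region cells and 295 and 3.67 in normal diet cells. Rps27rt had 1800 and 1360 FPKM in tumour-region cells, 1569 and 1192 in non-tumour-region cells and 1207 and 1278 in normal diet cells. The gene alone thus varied 80.6-fold over the libraries, whereas the sum of gene and copy varied 1.41-fold, from 1282 to 1811 FPKM. Between 0.286% and 19.7% of that sum was listed at Rps27.

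The same held in milder form for the other 3. Rpl30 held 2.93% to 5.91% of its sum with Gm12191, Rpl26 5.41% to 13.4% of its sum with Gm15772, and Rpl34 8.60% to 12.6% of its sum with Rpl34-ps1. Their sums varied 1.37-fold, 1.31-fold and 1.34-fold, against 2.43-fold, 2.38-fold and 1.61-fold for the genes alone. Values of these 4 genes are therefore uncertain in how they were divided. Rps15a remained low with its 2 listed copies added, at a mean of 20.7 FPKM, but 6 copies are annotated and the others are not listed. Of the 77 core genes, 71 have at least 1 copy among the GENCODE M21 transcripts of at least 95% identity over at least 80% of the coding sequence, and Rpl21 has 57. Copies without an annotated transcript were not searched. Only 8 of the 77 have such a copy listed at a mean of at least 1 FPKM, so reads from other copies cannot be followed here.

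**Figure D2:**
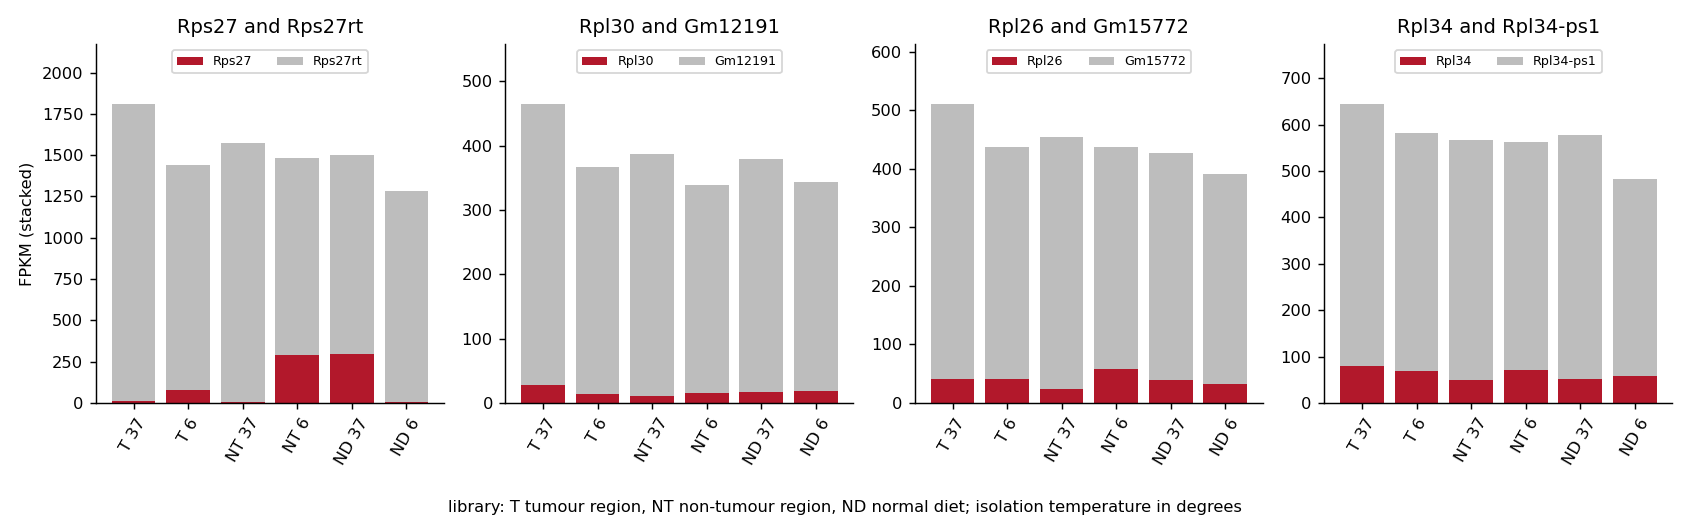
FPKM of 4 ribosomal protein genes (red) stacked on those of a near-identical copy (grey) in each library, with tumour region (T), non-tumour region (NT) and normal diet (ND) from left to right. The stacked heights stay within 1.41-fold for Rps27 while its own part runs from 3.67 to 295 FPKM.

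Isolation at 37 degrees was compared with isolation at 6 degrees because the study asked what a warm digestion does to the transcriptome. As deposited, ribosomal protein messengers were slightly higher at 37 degrees, with a median log2 fold change of 0.11 over the 81, against 0.01 over all 11557 genes tested, but the sign turned after quantile normalization (-0.0084). The value was positive in 76 of the 81. It was higher at 37 degrees in all 3 pairs of libraries for 49 members (all genes: 23.4%) and lower in all 3 for 1, Rps27l (all genes: 21.8%). No member passed an adjusted p of 0.05 in limma, where 5.13% of all genes did (0.511% higher and 4.62% lower). Without adjustment, 17 members reached a p under 0.05 in the direction of 37 degrees (all genes: 8.52%) and 0 in the other (all genes: 12.1%). The 95% interval of a member's log2 fold change reached a median of 0.19 to either side, and for 76 of 81 it lay within 0.5 of 0.

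The 3 pairs were unequal. The median member was 0.17 higher on the log2 scale at 37 degrees in tumour-region cells, with 76 higher and 5 lower. It was 0.15 higher in normal diet cells, with 77 higher and 4 lower. In non-tumour-region cells the median was 0.04, with 50 higher and 31 lower. Whether the pairs differ could not be tested with 1 library per group. Large and small subunit core genes had the same median, 0.11 each (n = 46 and n = 31).

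The highest fold change was that of Rps21, a small-subunit protein. Rps21 had 339 and 242 FPKM in tumour-region cells (37 and 6 degrees), 312 and 252 in non-tumour-region cells and 294 and 258 in normal diet cells. All 3 libraries of 37 degrees lay above all 3 of 6 degrees. Its log2 fold change was 0.33 ± 0.08 (SE), with an adjusted p of 0.105 in limma, the lowest of any member in this comparison.

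The stalk, the flexible arm of the large subunit that recruits translation factors, had a median log2 fold change of 0.21 over its 4 genes. Rplp2 had 528 and 394 FPKM in tumour-region cells, 442 and 387 in non-tumour-region cells and 435 and 363 in normal diet cells, for a log2 fold change of 0.29 ± 0.08 (SE, adjusted p = 0.116). Rpl12, at the base of the stalk, had 278 and 241 FPKM in tumour-region cells, 240 and 206 in non-tumour-region cells and 273 and 215 in normal diet cells, for 0.26 ± 0.07 (SE, adjusted p = 0.119). In Rplp2 every library of 37 degrees lay above every library of 6 degrees, whereas in Rpl12 non-tumour-region cells at 37 degrees (240 FPKM) lay just under tumour-region cells at 6 degrees (241 FPKM).

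The other 2 stalk genes had smaller fold changes. Rplp1 had 762 and 638 FPKM in tumour-region cells, 601 and 573 in non-tumour-region cells and 601 and 529 in normal diet cells. Rplp0, the scaffold of the stalk, had 493 and 448 FPKM in tumour-region cells, 379 and 402 in non-tumour-region cells and 415 and 395 in normal diet cells. Both were highest in tumour-region cells at 37 degrees, but Rplp0 was lower at 37 than at 6 degrees in the non-tumour region. Rplp0, which is itself used as a reference gene, had a log2 fold change of 0.04 ± 0.08 (SE, 95% interval -0.15 to 0.23).

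Rpl10, a large-subunit protein that joins late in subunit maturation, had 902 and 713 FPKM in tumour-region cells, 740 and 665 in non-tumour-region cells and 705 and 572 in normal diet cells. Its log2 fold change was 0.26 ± 0.08 (SE, adjusted p = 0.135). It was higher at 37 degrees in 3 of 3 pairs, though normal diet cells at 37 degrees lay just under tumour-region cells at 6 degrees. Rpl5 and Rpl11, which join the ribosome as a particle and when free bind Mdm2, were among the steadier members. Rpl5 had 140 and 127 FPKM in tumour-region cells, 130 and 128 in non-tumour-region cells and 139 and 122 in normal diet cells. Rpl11 had 286 and 261 FPKM in tumour-region cells, 248 and 249 in non-tumour-region cells and 262 and 249 in normal diet cells. Both were highest in tumour-region cells at 37 degrees and passed no test.

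Rps6 and Rps27a, members with well-studied further roles, gave mixed values. Rps6, the target of the S6 kinases, had 274 and 255 FPKM in tumour-region cells, 230 and 264 in non-tumour-region cells and 236 and 218 in normal diet cells. Its pairs pointed both ways, and its log2 fold change between 37 and 6 degrees was 0.01 ± 0.09 (SE). Rps27a, made as a fusion with ubiquitin, had 328 and 306 FPKM in tumour-region cells, 292 and 282 in non-tumour-region cells and 304 and 276 in normal diet cells. It was higher at 37 degrees in each pair by less than the fit could call, with a log2 fold change of 0.10 ± 0.07 (SE, adjusted p = 0.466).

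The 3 lowest fold changes between 37 and 6 degrees were those of split genes, Rps27 (-0.72 ± 2.102, SE), Rpl26 (-0.32 ± 0.29) and Rpl34 (-0.18 ± 0.14). Rpl34 had 78.9 and 69.3 FPKM in tumour-region cells, 48.8 and 70.7 in non-tumour-region cells and 50.9 and 58.4 in normal diet cells, and its groups overlapped. With the copies added, the log2 fold changes became 0.22 ± 0.08 for Rps27, 0.13 ± 0.07 for Rpl26 and 0.14 ± 0.08 for Rpl34 (SE), and none passed. The sign of all 3 thus turned once gene and copy were counted together. Rpl30 was at 0.22 ± 0.07 with its copy (SE) and did not pass.

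**Figure D3:**
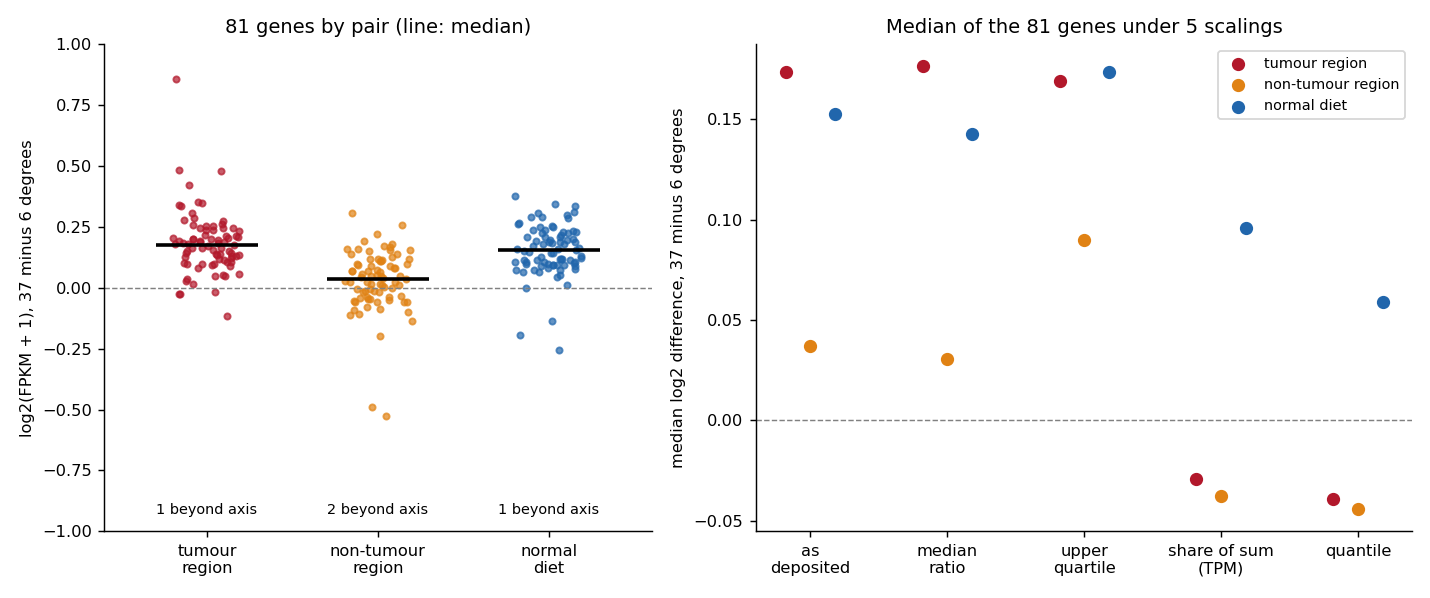
Left, the log2 difference in FPKM + 1 between 37 and 6 degrees of each of the 81 genes in the 3 pairs of libraries, with the median as a line and genes outside the axis counted. Right, the median of each pair under the deposited values and 4 rescalings. The medians are 0.17, 0.04 and 0.15 as deposited (tumour region, non-tumour region, normal diet), and the first 2 lie below 0 when each library is scaled to its own sum or quantile normalized.

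These small shifts depended on how the libraries were scaled. The deposited FPKM summed to 633363 and 549803 in tumour-region cells, 574344 and 545408 in non-tumour-region cells and 512724 and 492693 in normal diet cells, and so were higher at 37 degrees in each pair. Scaling by median ratios left the members' median at 0.11, and scaling by the upper quartile gave 0.14. The median-ratio factors were only 0.993 to 1.009, so that scaling could hardly move the values in this or any comparison below. Scaling each library to its own sum (the TPM scale) gave 0.0017, with 42 of 81 positive, and quantile normalization gave -0.0084, with 37 positive. The TPM scaling moved the median of all genes to -0.09, so that the members lay 0.09 above all genes, against 0.10 as deposited. After quantile normalization they lay 0.07 below (members minus all genes, -0.07). No member passed the adjusted p in this comparison under any of these scalings, and the sign of the family's median flips between them.

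The share of a library's summed FPKM does not depend on such a factor, though it moves with every other abundant gene. The 84 members held 5.36% and 5.41% of summed FPKM in tumour-region cells (37 and 6 degrees), 5.04% and 5.21% in non-tumour-region cells and 5.93% and 5.50% in normal diet cells. The difference between 37 and 6 degrees was -0.0536 percentage points in the tumour region, -0.168 in the non-tumour region and 0.438 in normal diet cells. As a share, the normal diet library of 37 degrees was the highest for 63 of the 81 tested members (77.8%, against 24.5% of all genes), whereas on deposited FPKM tumour-region cells at 37 degrees were the highest for 70 (86.4%, against 19.3%). The 100 most abundant genes outside the members held 34.1% and 30.03% of summed FPKM in tumour-region cells, 34.0% and 30.6% in non-tumour-region cells and 29.9% and 28.0% in normal diet cells. They held more at 37 degrees in every pair. With them left out of the sum, the members' share was 8.12% and 7.73% in tumour-region cells, 7.63% and 7.50% in non-tumour-region cells and 8.46% and 7.63% in normal diet cells, and was then higher at 37 degrees in all 3 pairs.

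**Figure D4:**
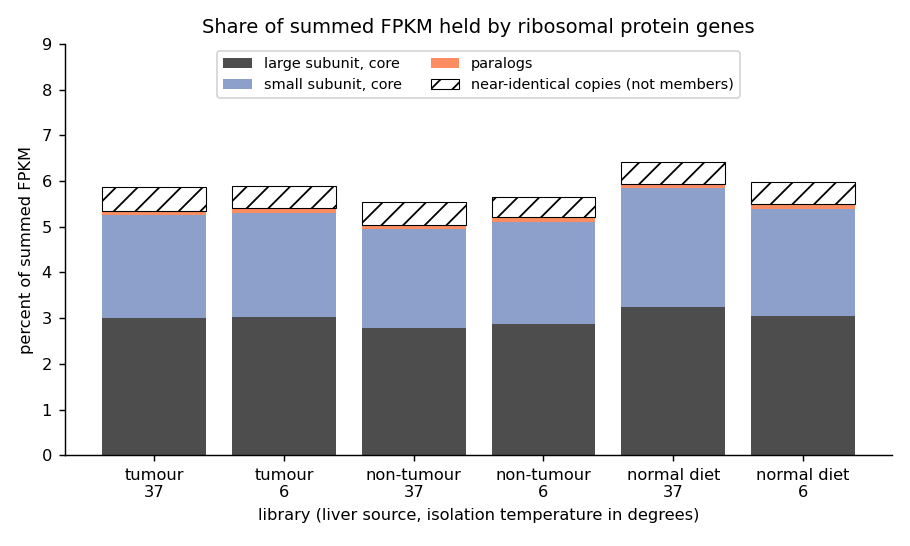
Percent of summed FPKM held by ribosomal protein genes in each library, stacked by large-subunit core genes, small-subunit core genes and paralogs, with near-identical copies on top (hatched, not members). The members' total runs from 5.04% in the non-tumour-region library of 37 degrees to 5.93% in the normal diet library of 37 degrees.

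Markers of stellate and of other liver cells also moved with temperature. All 20 stellate cell markers had a positive log2 fold change between 37 and 6 degrees (median 0.36), and 4 passed as higher (all genes: 0.511%). Summed hepatocyte markers were 164 and 124 FPKM in tumour-region cells (37 and 6 degrees). They were 49.8 and 130 in non-tumour-region cells and 96.2 and 405 in normal diet cells, and so were higher at 37 degrees only in the tumour region. Summed sinusoidal endothelial markers were 1528 and 3383 FPKM in tumour-region cells (37 and 6 degrees), 1853 and 6203 in non-tumour-region cells and 961 and 3086 in normal diet cells. Of these 20 markers, 0 had a positive log2 fold change between 37 and 6 degrees, and 17 passed the adjusted p as lower (all genes: 4.62%). Summed macrophage and Kupffer cell markers were 1253 and 3234 FPKM in tumour-region cells, 48.6 and 887 in non-tumour-region cells and 63.7 and 682 in normal diet cells. Of the 16 tested, 0 had a positive log2 fold change and 12 passed as lower. Of 17 macrophage markers, 2 were at 0 in the non-tumour-region library of 37 degrees and none in the other 5 libraries, and no endothelial marker was at 0. In tumour-region against normal diet cells, 15 of the 16 macrophage markers had a positive log2 fold change and 10 passed as higher (all genes: 6.07%). In non-tumour-region against normal diet cells, all 20 endothelial markers had a positive log2 fold change and 4 passed as higher (all genes: 2.98%). The part of these cell types in the ribosomal protein values was not tested.

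Tumour-region cells were compared with normal diet cells, which differ from them in diet as well as in disease. As deposited, ribosomal protein messengers were higher in the tumour region, with a median log2 fold change of 0.15, against 0.01 over all genes tested, but the sign turned on the TPM scale (-0.08) and after quantile normalization (-0.11). Of 81 members, 66 were higher in the tumour region at both temperatures (all genes: 35.7%) and 3 lower (all genes: 31.8%). Only Rps4l passed the adjusted p (all genes: 9.35%, of which 6.07% higher and 3.28% lower). Without adjustment, 11 members had a p under 0.05 and were higher (all genes: 15.4%), a share near that of all genes, and 0 were lower (all genes: 10.6%). The median was 0.15 at 37 degrees and 0.12 at 6 degrees.

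Rps4l was the member with the clearest difference between liver sources. It had 112 and 88.9 FPKM in tumour-region cells, 108 and 96.9 in non-tumour-region cells and 67.1 and 59.1 in normal diet cells. All 4 libraries of high-fat diet livers lay above both normal diet libraries. The log2 fold change was 0.66 ± 0.09 in tumour-region against normal diet cells (SE, adjusted p = 0.0165 in limma) and 0.69 ± 0.09 in non-tumour-region against normal diet cells (SE, adjusted p = 0.0172). It rose in both comparisons, which share the normal diet libraries. Between tumour and non-tumour region it was -0.04 ± 0.09 (SE, 95% interval -0.26 to 0.19). Rps4l passed in both comparisons under each of the rescalings. Without single libraries the first call was lost (adjusted p of 0.0729 without the tumour-region library of 37 degrees, 0.096 and 0.0736 without the normal diet library of 37 or of 6 degrees), as was the second without any of its 4 libraries (0.0787 to 0.182). Over all alternatives the adjusted p ran from 0.0162 to 0.151 and from 0.0164 to 0.182.

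The locus lies at chr6:148354656-148355598 on the plus strand of GRCm38. Its transcript matches the Rps4x coding sequence at 79.95% of 783 aligned bases, so the sequences differ at 157 bases, far more than the split copies above. The parent Rps4x, an X-linked protein of the small subunit, had 323 and 285 FPKM in tumour-region cells, 280 and 282 in non-tumour-region cells and 334 and 270 in normal diet cells. Rps4x thus overlapped fully between sources, with a log2 fold change of 0.01 ± 0.10 in tumour-region against normal diet cells (SE, adjusted p = 0.951). The ratio of Rps4l to Rps4x was 0.348 and 0.313 in tumour-region cells, 0.386 and 0.344 in non-tumour-region cells and 0.201 and 0.219 in normal diet cells.

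**Figure D5:**
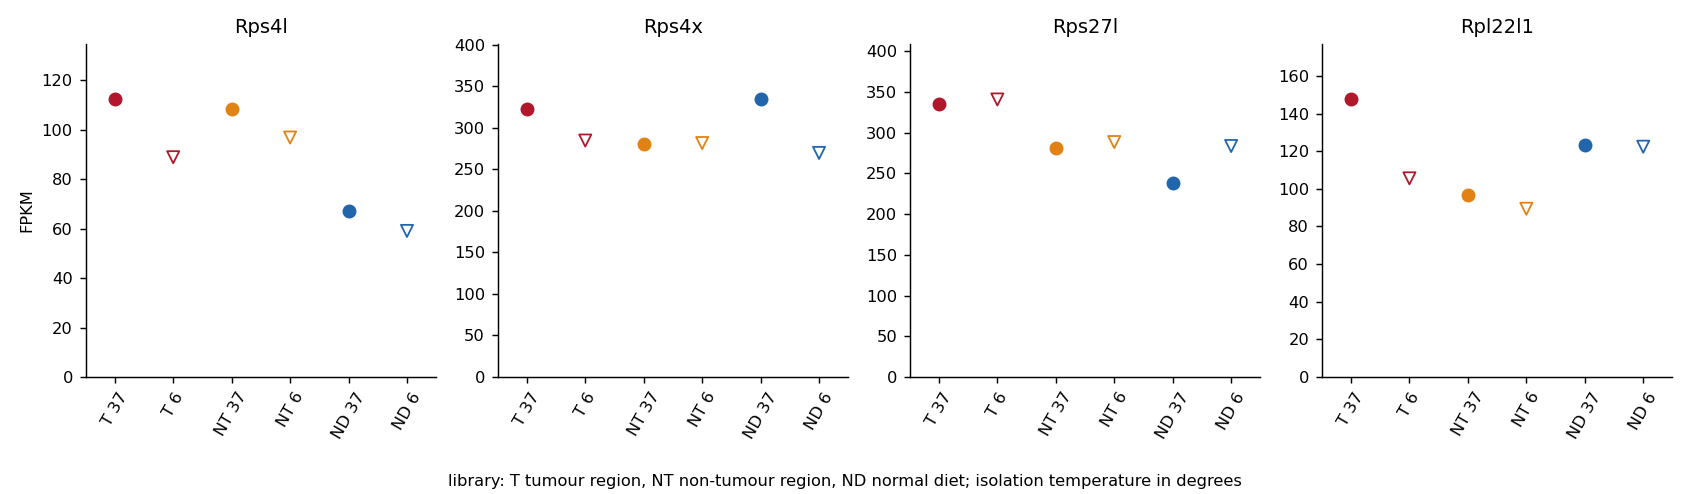
FPKM of Rps4l, its parent Rps4x, Rps27l and Rpl22l1 in each library (axes from 0), with tumour region (T), non-tumour region (NT) and normal diet (ND) from left to right, filled circles for 37 and open triangles for 6 degrees. Rps4l lies between 88.9 and 112 FPKM in the 4 high-fat diet libraries and at 59.1 and 67.1 FPKM in the normal diet libraries, while Rps4x overlaps between sources.

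Rps27l, a paralog of Rps27 known as a target of p53, had 335 and 341 FPKM in tumour-region cells, 281 and 288 in non-tumour-region cells and 238 and 284 in normal diet cells. Both tumour-region libraries were the highest, while the non-tumour-region and normal diet libraries overlapped. Its log2 fold change in tumour-region against normal diet cells was 0.38 ± 0.10 (SE, adjusted p = 0.0748), short of the threshold. Rpl34, with 0.43 ± 0.17 (SE, adjusted p = 0.196), had the second highest fold change, and with its copy added it stood at 0.21 ± 0.10 (SE) and did not pass.

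The lowest fold changes in tumour-region against normal diet cells were those of Rps27 (-0.27 ± 2.57, SE), Rpsa (-0.12 ± 0.08) and Rps2 (-0.10 ± 0.10). Rpsa, the small-subunit protein also known as a laminin receptor precursor, had 264 and 240 FPKM in tumour-region cells, 234 and 215 in non-tumour-region cells and 292 and 255 in normal diet cells. Rps2, near the messenger entry site of the small subunit, had 568 and 532 FPKM in tumour-region cells, 478 and 498 in non-tumour-region cells and 624 and 552 in normal diet cells. In both genes the normal diet library exceeded the tumour-region and the non-tumour-region library of the same temperature.

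The scaling mattered here too. The median of the 81 in tumour-region against normal diet cells was 0.15 under median-ratio scaling and 0.08 under upper-quartile scaling. It was -0.08 with each library scaled to its own sum, where 10 of 81 were positive, and -0.11 after quantile normalization, where 16 were. The TPM scaling moved the median of all genes by more, to -0.20, so the members still lay 0.12 above all genes, whereas after quantile normalization they lay below by 0.06 (-0.06). The direction of this family between tumour-region and normal diet cells therefore flips with the scaling.

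Non-tumour-region cells of high-fat diet livers were compared with the same normal diet cells. The members showed no common direction, with a median of -0.0026, against 0.03 over all genes. Of 81, 19 were higher in the non-tumour region at both temperatures (all genes: 37.7%) and 19 lower (all genes: 29.0%). Rps4l alone passed (all genes: 5.56%, of which 2.98% higher and 2.59% lower). Without adjustment, 1 member was past a p of 0.05 and higher (all genes: 12.6%) and 3 lower (all genes: 9.02%). The median was -0.07 at 37 degrees and 0.04 at 6 degrees. Scaled to the library sum it was -0.15, with 4 of 81 positive, and after quantile normalization -0.11, with 11 positive.

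Rpl22l1, Rpl30 and Rpsa had the lowest fold changes there. Rpl22l1, a paralog that can take the place of Rpl22 in the ribosome, had 147 and 106 FPKM in tumour-region cells, 97.0 and 89.4 in non-tumour-region cells and 123 and 122 in normal diet cells. Both non-tumour-region libraries lay below the other 4. Its log2 fold change in non-tumour-region against normal diet cells was -0.40 ± 0.13 (SE, adjusted p = 0.166), and with each library scaled to its own sum it was -0.55 with an adjusted p of 0.045, the only other call of a member under a rescaling (range over all alternatives 0.045 to 0.558). Rpsa was at -0.28 ± 0.08 (SE, adjusted p = 0.118) and Rpl30, a split gene, at -0.33 ± 0.32 (SE, adjusted p = 0.625). With its copy added Rpl30 stood at 0.0032 ± 0.09 (SE).

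Rps4l, Rps27 and Rps7 had the highest fold changes in that comparison. Rps7, a small-subunit protein that can also bind Mdm2, had 349 and 292 FPKM in tumour-region cells, 322 and 270 in non-tumour-region cells and 278 and 240 in normal diet cells. At each temperature its order was tumour region, non-tumour region, normal diet. Its log2 fold change against normal diet cells was 0.30 ± 0.08 in tumour-region cells (SE, adjusted p = 0.0787) and 0.19 ± 0.08 in non-tumour-region cells (SE, adjusted p = 0.253). Rps27 was at 0.27 ± 2.57 (SE).

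Tumour-region and non-tumour-region cells came from livers on the same diet. Most members were higher in the tumour region: 78 of 81 had a positive log2 fold change, with a median of 0.14, against -0.02 over all genes. At both temperatures 59 were higher (all genes: 26.6%) and 0 lower (all genes: 32.5%). None passed the adjusted p in limma (all genes: 0.45%, all of them higher). Without adjustment, 12 members had a p under 0.05 and were higher (all genes: 6.37%) and 0 were lower (all genes: 3.76%). The smallest adjusted p of a member was 0.394. The median was 0.21 at 37 degrees, with 80 of 81 higher, and 0.08 at 6 degrees, with 60 higher. This comparison kept a positive median under each scaling: 0.15 with median ratios, 0.14 with the upper quartile, 0.06 with the library sum and 0.02 after quantile normalization. Summed macrophage markers were also higher in the tumour region at both temperatures (values above). Other marker lists moved too. A positive log2 fold change was found in 2 of 20 stellate cell and 0 of 20 endothelial markers (all genes: 5325 of 11557). It was found in 13 of 15 hepatocyte markers, though their sum was higher in the tumour region only at 37 degrees. The part of any of these cell types in this difference was not tested.

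The highest fold changes between tumour and non-tumour region were those of Rpl30 (0.54 ± 0.32, SE, and 0.19 ± 0.09 with its copy added), Rpl22l1 (0.42 ± 0.13) and Rps26 (0.34 ± 0.12). Rps26, which lies near the messenger exit site of the small subunit, had 365 and 315 FPKM in tumour-region cells, 262 and 271 in non-tumour-region cells and 340 and 269 in normal diet cells. Both tumour-region libraries lay above both non-tumour-region libraries. The lowest were Rps27 (-0.54 ± 2.57, SE), Rpl7l1 (-0.09 ± 0.11) and Rps4l.

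Paralogs stood at different levels relative to their parents. Rpl7l1, known as a factor of large-subunit assembly, had 25.6 and 27.8 FPKM in tumour-region cells, 29.1 and 27.7 in non-tumour-region cells and 29.97 and 27.0 in normal diet cells. Its parent Rpl7 had 523 and 466 FPKM in tumour-region cells, 484 and 484 in non-tumour-region cells and 467 and 436 in normal diet cells. The ratio of paralog to parent was 0.049 to 0.0642 over the 6 libraries. Rpl22, the parent of Rpl22l1, had 32.0 and 28.1 FPKM in tumour-region cells, 28.8 and 29.5 in non-tumour-region cells and 31.3 and 25.5 in normal diet cells. Here the paralog was the more abundant as listed: Rpl22l1 exceeded Rpl22 4.61-fold and 3.76-fold in tumour-region cells, 3.37-fold and 3.03-fold in non-tumour-region cells and 3.94-fold and 4.80-fold in normal diet cells. Rpl22 has 1 annotated near-identical copy that is not listed, and Rpl22l1 has 2, of which 1 is listed. Fragments assigned to the unlisted copies cannot be followed.

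The other 3 paralogs were near or at 0. Rpl3l, a paralog of striated muscle, had 0.328 and 0.557 FPKM in tumour-region cells, 0.258 and 0.112 in non-tumour-region cells and 0.563 and 0.327 in normal diet cells, while its parent Rpl3 had 395 and 374 FPKM in tumour-region cells, 339 and 349 in non-tumour-region cells and 376 and 376 in normal diet cells. Rpl10l, known from the testis, was listed at 0 except for 0.0575 FPKM in the normal diet library of 37 degrees. Rpl39l, also known from the testis, was listed at 0 except for 0.156 FPKM in tumour-region cells at 6 degrees. Its parent Rpl39 had 522 and 464 FPKM in tumour-region cells, 440 and 397 in non-tumour-region cells and 481 and 394 in normal diet cells.

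Outside the symbol rule, Rpl36al, a relative of Rpl36a, rose in tumour-region against normal diet cells. Rpl36al had 353 and 302 FPKM in tumour-region cells, 305 and 289 in non-tumour-region cells and 238 and 226 in normal diet cells. Its log2 fold change there was 0.49 ± 0.09 (SE, adjusted p = 0.0296 in limma). In non-tumour-region against normal diet cells it was 0.36 ± 0.09 (SE, adjusted p = 0.0838). Between tumour and non-tumour region it was 0.14 ± 0.09 (SE, adjusted p = 0.629). Every library of high-fat diet livers lay above both normal diet libraries, so the rise was not particular to the tumour region. Its values under the rescalings are not given here. Rpl36a had 218 and 184 FPKM in tumour-region cells, 189 and 197 in non-tumour-region cells and 191 and 172 in normal diet cells, which overlapped between sources.

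Genes of the same pathway were set beside the members. Of 25 other genes with TOP messengers, mostly translation factors, 0 passed between 37 and 6 degrees in limma (all genes: 5.13%), with a median of 0.06. Without adjustment 2 were higher (all genes: 8.52%). In non-tumour-region against normal diet cells 1 of the 25, the RNA-binding protein gene Hnrnpa1, passed as lower (-1.32 ± 0.20, SE, adjusted p = 0.0263 in limma, all genes: 2.59%). The median there was -0.07. Of 40 ribosome biogenesis genes, 35 had a positive log2 fold change between 37 and 6 degrees, with a median of 0.11 like that of the members. Only 1, the assembly factor gene Rrs1, passed (0.50 ± 0.07, SE, adjusted p = 0.025 in limma, all genes: 0.511% higher). Against normal diet cells the biogenesis median was 0.17 in tumour-region cells and 0.20 in non-tumour-region cells. In tumour-region cells 1 of 40, Nop10, passed as higher (0.48 ± 0.08, SE, adjusted p = 0.0305 in limma, all genes: 6.07%). In non-tumour-region cells 0 of 40 passed, and 6 were higher without adjustment, a share near that of all genes (12.6%). The members' own median in non-tumour-region against normal diet cells was -0.0026.

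Of 20 genes of mTORC1 and of TOP regulation, 2 passed in any comparison. That was 1 between 37 and 6 degrees (all genes: 5.13%) and 1 in each region against normal diet cells (all genes: 9.35% and 5.56%). Deptor, an inhibitor of mTOR, had 3.05 and 2.57 FPKM in tumour-region cells, 3.16 and 2.44 in non-tumour-region cells and 8.54 and 8.09 in normal diet cells. It fell by 1.29 ± 0.14 on the log2 scale in tumour-region cells (SE, adjusted p = 0.0103) and by 1.30 ± 0.14 in non-tumour-region cells (SE, adjusted p = 0.0118), each against the same normal diet libraries. Sesn1, a stress-induced inhibitor of mTORC1, had 8.76 and 13.99 FPKM in tumour-region cells, 6.91 and 13.4 in non-tumour-region cells and 9.60 and 13.7 in normal diet cells. It fell at 37 degrees by 0.65 ± 0.11 (SE, adjusted p = 0.0402), and every library of 37 degrees lay below every library of 6 degrees.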

How the data were processed

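The deposited values are FPKM that the authors listed per gene symbol in each of 6 libraries. Per the submitters' processing notes, TopHat2 2.1.1, Bowtie2 and Cuffdiff 2.2.1 were used with mm10, with settings, annotation and use of strand not given in the sources used here. A mean of 1 FPKM was the minimum for testing, and 1288 small RNA symbols were left out of the tests. They stayed in the library sums behind the TPM scale and the shares, where they held 1.14% (normal diet, 6 degrees) to 1.84% (tumour region, 37 degrees). The values log2(FPKM + 1) were fitted with limma 3.58.1 (R 4.3.3) with additive terms for liver source and temperature, an intensity trend and 2 residual degrees of freedom. Tests were two-sided, with Benjamini-Hochberg adjustment over all 11557 genes. The pseudocount understates changes of low genes. Unequal temperature effects between sources add to the residuals, and an interaction cannot be fitted. Both contrasts with normal diet share its 2 libraries. Copies were searched among GENCODE M21 transcripts with blastn 2.17.0. Depth was estimated from the smallest values of genes with a single transcript. The fit was tested on simulated additive values with temperature effects larger than those of the members, which does not test it at their size. The members, gene lists and tests were chosen with earlier results of these data known. Named were members past the adjusted p, the 3 highest and 3 lowest per contrast, the 5 most and least abundant, paralogs and parents, stalk genes, Rpl5, Rpl11, Rps6, Rpsa and Rps27a. Genes past the adjusted p were also named from the lists of ribosomal protein genes outside the rule, TOP, biogenesis and mTORC1 genes. Genes that passed in the lists of heat shock, reference, mitochondrial ribosomal protein and cell marker genes were not named on that ground. Rpl7a, Rpl35, Rpl36a, Pecam1, Ptprc and the reference genes shown were picked after their values were seen. Alternatives covered the pseudocount, the filter, 5 rescalings, single libraries left out and the model terms. Adding near-identical copies was chosen after seeing the data.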

Additional observations from a re-analysis of the deposited data

Results flagged for a closer look

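The share of summed FPKM held by the ribosomal protein genes was lower at 37 than at 6 degrees in the tumour region (-0.0536 percentage points) and the non-tumour region (-0.168) and higher in normal diet cells (0.438). These opposite directions were noted because each source has 1 pair of libraries, and the difference between sources was not tested.

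Rps27 was lower at 37 degrees in the tumour region (log2 difference of -2.76) and the non-tumour region (-5.40) and higher in normal diet cells (5.99). Rpl26 was lower in the tumour region (-0.0186) and the non-tumour region (-1.22) and higher in normal diet cells (0.29). Rpl30 was higher in the tumour region (0.855) and lower in the non-tumour region (-0.491) and normal diet cells (-0.138). All 3 are genes with a near-identical copy that holds most of their joint FPKM, and these differences between sources were not tested.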

How the results depend on the processing

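No pairing by replicate number was possible, since the labels give none and each group holds 1 library; the fit instead matched libraries through its additive terms, by source for temperature and by temperature for source. The members' median log2 fold change between 37 and 6 degrees was 0.0017 under TPM scaling and -0.0084 after quantile normalization. In tumour-region against normal diet cells it was -0.0834, 0.0768 and -0.1071 under TPM, upper-quartile and quantile scaling and 0.1247 within 6 degrees alone, and leaving out single libraries gave 0.102 to 0.1875. In non-tumour-region against normal diet cells it was -0.1549 (TPM) and -0.1143 (quantile), and in tumour against non-tumour region 0.0174 (quantile). Members passing in tumour-region and in non-tumour-region against normal diet cells numbered 0 without the filter on low values, 0 without the temperature term and 0 to 1 with single libraries left out, and 2 under TPM scaling for the non-tumour region. Their share without the 100 most abundant other genes was 8.12%, 7.73%, 7.63%, 7.50%, 8.46% and 7.63% (tumour region, non-tumour region and normal diet, each at 37 then 6 degrees), with copies added 5.88%, 5.89%, 5.55%, 5.65%, 6.42% and 5.99%, and 6.24% with genes outside the symbol rule added in the normal diet library of 37 degrees. The cause of these shifts was not tested. Over all genes, 593, 1081, 643 and 52 passed in the 4 comparisons, against 0 in each without the filter. Without the source term 0 passed for temperature, and 4, 4 and 0 passed in the source comparisons without the temperature term. No result changed sign together with a call. With 1 library per group and 2 residual degrees of freedom, small differences between single genes were not resolved.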
